A study of Mus musculus with 29 samples.

Results

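The 10 genes described here encode actin and proteins that bind it in leukocytes and platelets: Actb, Actg1, Tmsb4x, Tmsb10, Pfn1, Cfl1, Coro1a, Arpc1b, Cotl1 and Lcp1. They are 10 of the 50384 gene rows in the deposited table, and all 10 passed the filter on low values. The list was chosen by gene name, with earlier results of these data known, to be read across the 3 groups with and without 3 libraries. Cotl1 has the third smallest p of all 24310 genes tested in Die against sham, so the group values of the members, of Cotl1 above all, are a description and not independent evidence.

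Whole blood total RNA was sequenced from 29 male mice, 1 library per animal, all at day 120. Die (n = 9) holds animals of the strain given as LJ that received 11.35 Gy to the upper body and carry the outcome label Die. Live (n = 10) holds LJ animals with the same irradiation and the outcome label Live, and both groups together are called irradiated (n = 19). Sham (n = 10) holds LJ animals after sham irradiation, all labelled Live. The series text gives its aim as finding blood markers of survival after delayed lung injury. The labels name no batch, and they do not say whether equal replicate numbers mark anything shared between groups. Blood was drawn from the cheek or tail vein into PAX solution, so each library mixes red cell, platelet and leukocyte RNA. Markers of each of these were present in all libraries: the sum over 5 pan-leukocyte genes lay between 37040 and 62366, that over 8 platelet genes between 44894 and 157055 and that over 7 erythroid genes between 389142 and 2135470, in normalised values.

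Actin exists as single subunits that assemble into filaments, and the turnover between both forms drives the crawling, phagocytosis and shape change of blood cells. Thymosins and profilin hold single subunits in reserve, the Arp2/3 complex starts branches, cofilin and coronin take filaments apart, and plastin and coactosin-like protein bind to filaments. Transcription of many actin genes is governed by serum response factor, which binds a motif called the CArG box.

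Promoters of the members were searched because several of them varied together between libraries. RefSeq (GRCm38.p6) promoters, each 250 bases before to 50 bases after a start site, were matched for 8 of the 10 members, all but Actb and Cotl1, with 12 start sites in all. A CArG box was found on either strand in 1 of the 12, that of Actg1, against 1.63% of 32851 promoters in the same table. The Actg1 promoter is chr11:120348446-120348745 on the minus strand, and the capitals mark the CArG box, which starts 90 bases before the start site and overlaps none of the other motifs searched.
Actg1: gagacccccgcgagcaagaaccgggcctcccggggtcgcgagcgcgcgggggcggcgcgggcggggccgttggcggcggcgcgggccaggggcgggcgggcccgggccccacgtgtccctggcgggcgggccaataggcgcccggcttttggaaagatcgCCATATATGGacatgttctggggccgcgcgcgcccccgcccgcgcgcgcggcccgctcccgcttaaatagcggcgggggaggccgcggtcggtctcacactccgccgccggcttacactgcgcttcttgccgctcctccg
The GC box (GGGCGG, either strand) was in 11 of the 12 member promoters, against 35.7% of all. The TATA box (TATAAA) was in 0 of 12, against 13.6% of all, and the PU.1 motif (GAGGAAGT) was in 1 of 12, that of Arpc1b, against 3.20% of all. These are matches of letters in a window and say nothing of binding.

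No member passed an adjusted p of 0.05 in any of the 4 comparisons, with or without the 3 libraries named below. Cotl1, which encodes coactosin-like protein, averaged lowest in Die, between both other groups in Live and highest in sham. Lcp1, the leukocyte plastin, and Tmsb4x, the main thymosin, differed from sham mostly in Live and in opposite directions. Actb, Pfn1, Tmsb10 and Cfl1 had differences of 0.35 or less in size on the log2 scale in each comparison of all 29 libraries.

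In irradiated against sham, 0 of 10 members were called by limma, 3 had an unadjusted p under 0.05, and of all 24310 genes 0.0165% were called and 7.40% had an unadjusted p under 0.05. For Live against sham the same counts were 0 and 3 of 10, with 0.0411% of all genes called and 7.68% at an unadjusted p under 0.05. For Die against sham they were 0 and 2 of 10, with 0% of all genes called and 8.67% at an unadjusted p under 0.05. For Die against Live they were 0 and 4 of 10, with 0% of all genes called and 10.3% at an unadjusted p under 0.05. The median log2 difference of the members was -0.06 in irradiated against sham, 0.00 in Live against sham, -0.17 in Die against sham and -0.28 in Die against Live. Over all genes tested the medians were 0.02, 0.01, 0.02 and 0.00 in the same order. Limma with array weights, which lets noisy libraries count less, called 2 members in irradiated against sham and 1 in Live against sham, among 1.98% and 2.95% of all genes, and 0 in the other comparisons.

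**Figure D1:**
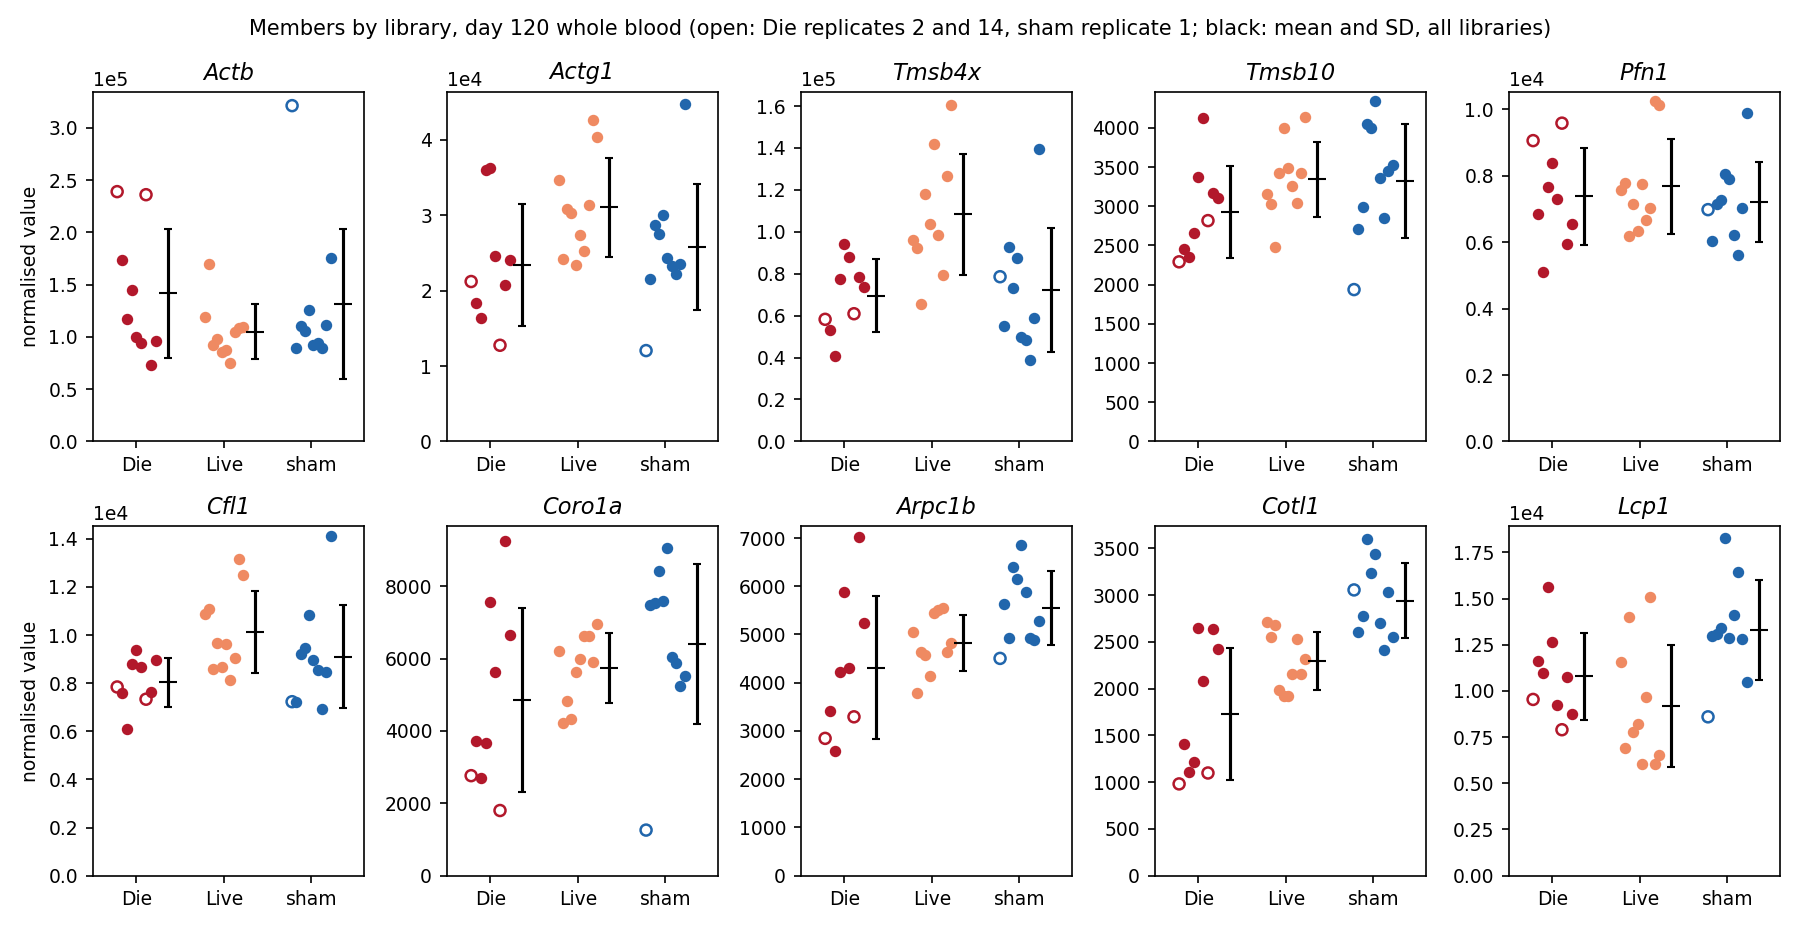
Normalised value (vertical axes, linear, starting at 0) of each member in every library, by group, with open circles for Die replicates 2 and 14 and sham replicate 1 and black bars for the mean and SD of all libraries in the group. The Cotl1 panel shows all 19 irradiated libraries below the sham median of 2901, and the Tmsb4x panel shows 7 of 10 Live libraries above the highest Die library.

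Die replicate 2, Die replicate 14 and sham replicate 1 stood apart from the rest. Among 11519 genes averaging 50 or more, they had 754, 506 and 828 at 0, against 13 to 220 in the other 26 libraries. The total of all values per library lay between 19.6 M and 55.7 M. 7S RNA (Rn7s1 with Rn7s2), the RNA part of the particle that guides secreted proteins to their membrane, took 2.73% to 40.1% of it, and the members took 0.58% to 2.01%. Without the 3 libraries, limma called 0 of 10 members in irradiated against sham (0.391% of 23528 genes), in Live against sham (0.706%), in Die against sham (0.0085%) and in Die against Live (0%). At an unadjusted p under 0.05 there were then 4, 3, 3 and 2 members in the same order, against 10.2%, 11.6%, 8.28% and 8.14% of all genes.

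The order of the members was read from values per kilobase of transcript, averaged over the 29 libraries. This takes the deposited values as not yet scaled by length, which the processing notes do not say. Before the division, Actb averaged above Tmsb4x in Die (141558 against 69495) and sham (131563 against 72240). In Live it averaged 104976, against 108270 for Tmsb4x. The order below holds for the values per kb only. Tmsb4x led with 109130 ± 40358 per kb, then Actb with 79378 ± 35843 per kb (SD, n = 29). These top genes stood in that order in 23 of 29 libraries. Actg1 followed with 14695, Pfn1 with 10119, Cfl1 with 7947 and Tmsb10 with 5376 per kb. Coro1a had 3431 and Lcp1 3088 per kb, in this order in 17 of 29 libraries, so these neighbours did not separate. Arpc1b had 2183 and Cotl1 1541 per kb, in this order in 28 of 29 libraries.

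Actb and Actg1 encode the cytoplasmic beta and gamma actins. Actb (chr5:142903115-142906754, minus strand) had normalised values from 72661 over a median of 117075 to 238947 in Die, from 74952 over 101206 to 170063 in Live, and from 89412 over 108221 to 321200 in sham. The highest 3 of all were Die replicate 2 with 238947, Die replicate 14 with 236018 and sham replicate 1 with 321200, and the groups overlapped throughout. Its log2 difference was 0.12 ± 0.23 (SE) in Die against sham, adjusted p = 0.911, and 0.35 ± 0.23 in Die against Live, adjusted p = 0.617. Without the 3 libraries it was 0.03 and 0.10, so the Die against Live difference shrank more than 1.5 times.

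Actg1 (chr11:120345690-120348542, minus strand), whose promoter is printed above, ran from 12754 over 21211 to 36206 in Die, from 23412 over 30543 to 42590 in Live, and from 12049 over 23879 to 44720 in sham. In Die, 5 of 9 Die libraries were below every Live library, while both groups overlapped sham. The log2 difference in Die against Live was -0.46 ± 0.19, adjusted p = 0.429, and -0.33 ± 0.19, adjusted p = 0.651, without the 3 libraries. Actb and Actg1 shared 106 stretches of 31 bases between their transcripts. Of the stretches of Actg1, 56.5% occur in some gene outside the members, and 34.7% of those of Actb do. The genes outside the members that share at least 100 of them summed to at most 1.30% of the Actb value in any library. For Actg1 such genes summed to at most 0.87%. Actb and Actg1 are left out of each other's sums, although they share 106 stretches. The split of reads between copies, and between Actb and Actg1, is therefore uncertain to an extent these values do not show.

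The ratio of Actb to Actg1 within a library showed how the 3 libraries depart. It was 11.3 in Die replicate 2, 18.5 in Die replicate 14 and 26.7 in sham replicate 1. In the other 9 sham libraries it was nearly fixed, at 4.06 ± 0.29 (SD), from 3.79 to 4.75. The other 7 Die libraries ran from 2.77 to 9.48, with replicates 3 and 4 at 9.48 and 7.16, and the 10 Live libraries from 2.54 to 7.01, with replicate 5 at 7.01. Die replicate 3, Live replicate 5 and sham replicate 9 followed the 3 in genes at 0, with 194, 220 and 195, but sham replicate 9 had a ratio of 4.75, and Die replicate 4 had 45 genes at 0. What sets the ratio was not tested.

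**Figure D2:**
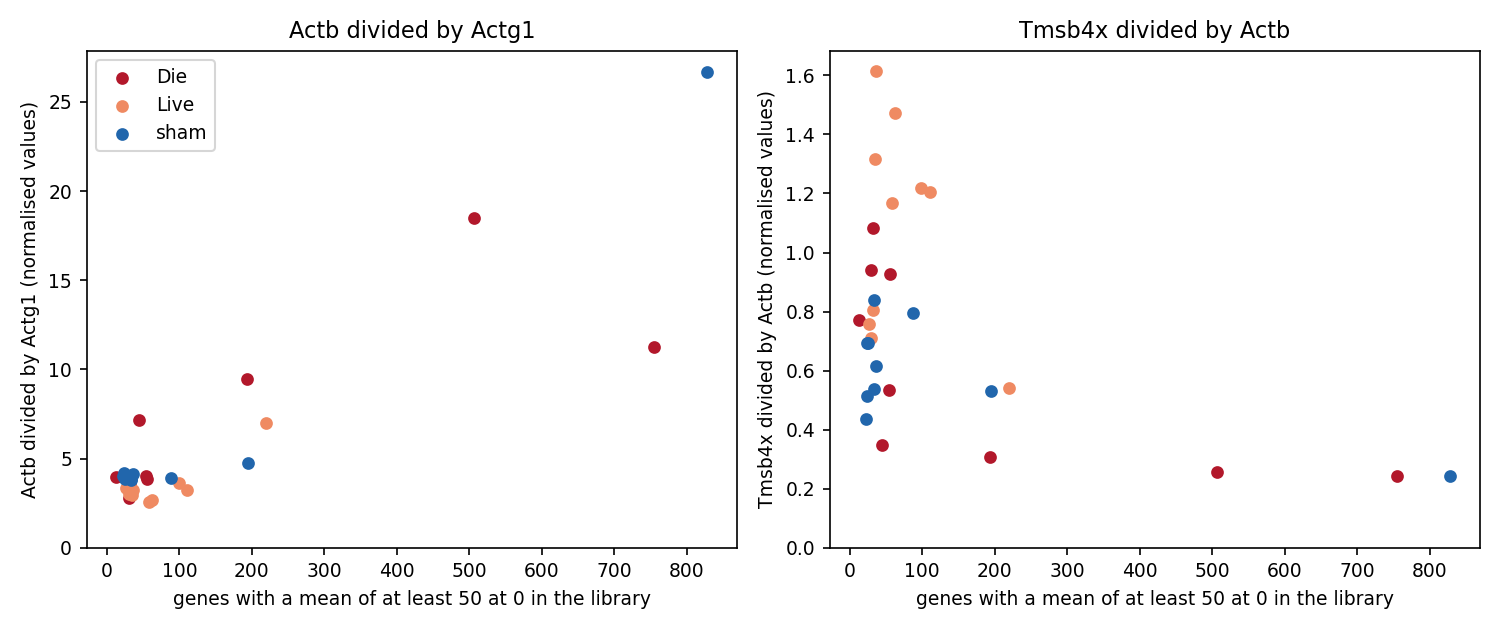
Ratio of Actb to Actg1 (left) and of Tmsb4x to Actb (right), each against the number of genes with a mean of at least 50 that are at 0 in the library; each point is 1 library, coloured by group. The 3 libraries with 506 or more genes at 0 have the highest Actb to Actg1 ratios, 11.3 to 26.7, and the lowest Tmsb4x to Actb ratios, 0.24 to 0.26.

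The muscle actins were a check on which actins blood held. Acta1, Actc1 and Actg2 averaged 18.9 or less in each group and were at 0 in many libraries. Acta2, the smooth muscle actin, averaged 168 ± 118 in Die, 180 ± 79 in Live and 271 ± 78 in sham (SD).

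Tmsb4x (chrX:167207093-167209315, minus strand) encodes thymosin beta-4, which sequesters single actin subunits and is abundant in platelets. It ran from 40826 over a median of 73806 to 94211 in Die, from 65583 over 101256 to 160605 in Live, and from 38867 over 66218 to 139516 in sham. All 9 Die libraries were below the Live median, and 7 of 10 Live libraries were above the highest Die library. Sham overlapped both groups, since sham replicate 10 reached 139516 while the next sham library had 92609. The log2 difference was 0.63 ± 0.20 in Live against sham, adjusted p = 0.283, and -0.64 ± 0.21 in Die against Live, adjusted p = 0.357. In Die against sham it was 0.00 ± 0.21, adjusted p = 1. Without the 3 libraries it was 0.66 ± 0.24 in Live against sham, adjusted p = 0.215, and -0.59 ± 0.26 in Die against Live, adjusted p = 0.585.

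Platelet marker sums averaged highest in Live, as Tmsb4x did. The sum over 8 platelet genes was 77452 ± 19388 in Die (46954 to 110369), 95876 ± 23790 in Live (72158 to 136261) and 76458 ± 35455 in sham (44894 to 157055), and no platelet marker was at 0 in any library. Of the 8, 0 were called in Die against Live, with 0% of all genes called. In Live against sham without the 3 libraries 1 was called higher, with 0.706% of all genes called. The highest platelet sum, 157055, was that of a sham library other than sham replicate 1. Platelet sums of single libraries were read only for the 3 libraries with many genes at 0. How the sum and Tmsb4x go together over the other libraries is therefore not given. Die replicate 2 had a platelet sum of 83143 with a Tmsb4x value of 58244. Sham replicate 1 had a platelet sum of 112949 with a Tmsb4x value of 78572. Die replicate 14 had the highest platelet sum in Die, 110369, with a Tmsb4x value of 60916, below the Die median. Whether platelet content accounts for the Tmsb4x values was not tested, and in bulk blood fewer cells of a type and less RNA per cell cannot be told apart.

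Tmsb10 (chr6:72957347-72958748, minus strand) encodes thymosin beta-10, a relative that binds actin in the same way. It averaged 2927 ± 588 in Die, 3344 ± 481 in Live and 3322 ± 723 in sham (SD), with log2 differences between -0.20 and 0.03. The ratio of Tmsb4x to Tmsb10 was 23.7 ± 3.6 in Die, 32.1 ± 5.4 in Live and 22.8 ± 10.6 in sham. Die libraries ran from 17.4 to 29.2 and Live libraries from 25.9 to 40.6. Of the Tmsb10 stretches of 31 bases, 32.0% occur in some other gene and 27.0% in Gm9844, which was at 0.11% of Tmsb10 or less in each library.

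Pfn1 (chr11:70651850-70654644, minus strand) encodes profilin, which feeds actin subunits to growing filament ends. It averaged 7386 ± 1457 in Die, 7689 ± 1432 in Live and 7218 ± 1215 in sham, with log2 differences between -0.06 and 0.09. Its groups overlapped almost completely.

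Cfl1 (chr19:5490455-5495201, plus strand) encodes cofilin, which severs old filaments. It ran from 6095 over 7842 to 9387 in Die, from 8135 over 9631 to 13164 in Live, and from 6931 over 8749 to 14120 in sham. All 9 Die libraries were below the Live median and 5 were below the lowest Live library. The log2 difference in Die against Live was -0.33 ± 0.13, adjusted p = 0.423, and -0.31 ± 0.15, adjusted p = 0.607, without the 3 libraries.

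Coro1a (chr7:126699773-126707787, minus strand) encodes coronin-1A, a leukocyte protein that acts on Arp2/3 branches. It ran from 1801 over 3733 to 9258 in Die, from 4229 over 5947 to 6966 in Live, and from 1260 over 6763 to 9066 in sham. Die held both very low and very high libraries, and its coefficient of variation was 52.2%, against 16.9% in Live. The lowest value of all was sham replicate 1, with 1260, while the other 9 sham libraries lay between 5248 and 9066. The log2 difference in Die against sham was -0.44 ± 0.28, adjusted p = 0.679, and -0.41 ± 0.20, adjusted p = 0.589, without the 3 libraries. In Live against sham it was -0.03 ± 0.27, adjusted p = 1, and -0.28 ± 0.18, adjusted p = 0.612, without them, and this change came with leaving out sham replicate 1 alone (-0.28).

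Arpc1b (chr5:145114215-145130705, plus strand) encodes the Arp2/3 subunit that prevails in blood cells. It ran from 2577 over 4220 to 7022 in Die, from 3794 over 4733 to 5541 in Live, and from 4504 over 5460 to 6857 in sham. In all, 6 of 9 Die libraries and 2 of 10 Live libraries were below every sham library, and 1 Die library was above all of them. The lowest sham value was that of sham replicate 1. Without the 3 libraries, 4 of 7 Die and 6 of 10 Live libraries were below every sham library. All 10 Live libraries were then below the sham median. The log2 difference was -0.42 ± 0.15 in Die against sham, adjusted p = 0.508, and -0.34 ± 0.16, adjusted p = 0.583, without the 3 libraries. In Live against sham it was -0.20 ± 0.15, adjusted p = 0.836, and -0.23 ± 0.15, adjusted p = 0.593, without them.

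Cotl1 (chr8:119809222-119840544, minus strand) encodes coactosin-like protein, a small filament-binding protein that also binds 5-lipoxygenase. It ran from 981 over a median of 1412 to 2649 in Die, from 1919 over 2236 to 2713 in Live, and from 2414 over 2901 to 3605 in sham. The means were 1732 ± 706 in Die, 2292 ± 308 in Live and 2941 ± 398 in sham (SD). All 19 irradiated libraries were below the sham median and 12 were below the lowest sham library, 6 in Die and 6 in Live, so the groups still overlapped. Without the 3 libraries these counts were 17 of 17 and 10 of 17.

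The Cotl1 log2 difference was -0.86 ± 0.17 (SE) in Die against sham, adjusted p = 0.151, and -0.67 ± 0.17, adjusted p = 0.233, without the 3 libraries. In Live against sham it was -0.36 ± 0.17, adjusted p = 0.612, and -0.35 ± 0.15, adjusted p = 0.345, without them. In irradiated against sham it was -0.61 ± 0.15, adjusted p = 0.160, and -0.51 ± 0.14, adjusted p = 0.0973, without them. In Die against Live it was -0.50 ± 0.17, adjusted p = 0.371, and -0.32 ± 0.17, adjusted p = 0.617, without them, smaller by more than 1.5 times. Leaving out 1 library at a time kept Die against sham between -0.95 and -0.77, with an adjusted p between 0.0399 and 0.457. Limma called this difference only without Die replicate 11, adjusted p = 0.0399, or without sham replicate 1, adjusted p = 0.0462. The share of all genes called in those fits is not given here, so the calls are not read as particular to Cotl1. Irradiated against sham was called with array weights, -0.50, adjusted p = 0.0227, and with the 7S share as a covariate, -0.66, adjusted p = 0.0324.

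The 9 Die libraries fell into separate Cotl1 levels that went with the 7S share, a split read from these values. Die replicates 2, 3, 4, 10 and 14 had Cotl1 values of 981, 1412, 1103, 1213 and 1098, and 7S shares of 3.02% to 8.72%. Die replicates 11, 12, 15 and 16 had Cotl1 values of 2649, 2076, 2637 and 2418, and 7S shares of 15.2% to 32.1%. Only 2 of the first 5 are among the 3 libraries with many genes at 0.

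Coro1a was also lower in the first 5 of these Die libraries than in the other 4. It was 1801 to 3733 in Die replicates 2, 3, 4, 10 and 14 and 5626 to 9258 in the other 4. Arpc1b was 2577 to 4220 in the first set and 4312 to 7022 in the second, so the sets adjoin without a clear gap. Sham replicate 1, with a 7S share of 2.73%, had a Coro1a value of 1260 but a Cotl1 value of 3055. Live libraries had 7S shares of 11.6% to 40.1%, and the other sham libraries 14.7% to 26.3%. Cotl1 did not rise with the 7S share in Live as it did in Die. Live replicate 5, with the lowest share, had a Cotl1 value of 2550, and Live replicate 18, with the highest, had 2151. Live replicate 1, with a share of 29.5%, had 2713. With the 7S share as a covariate, Die against Live was -0.25 for Cotl1, adjusted p = 0.979, and 0.35 for Coro1a and 0.09 for Arpc1b, both with the sign turned. The part of the 7S share in these values was not tested beyond that fit.

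**Figure D3:**
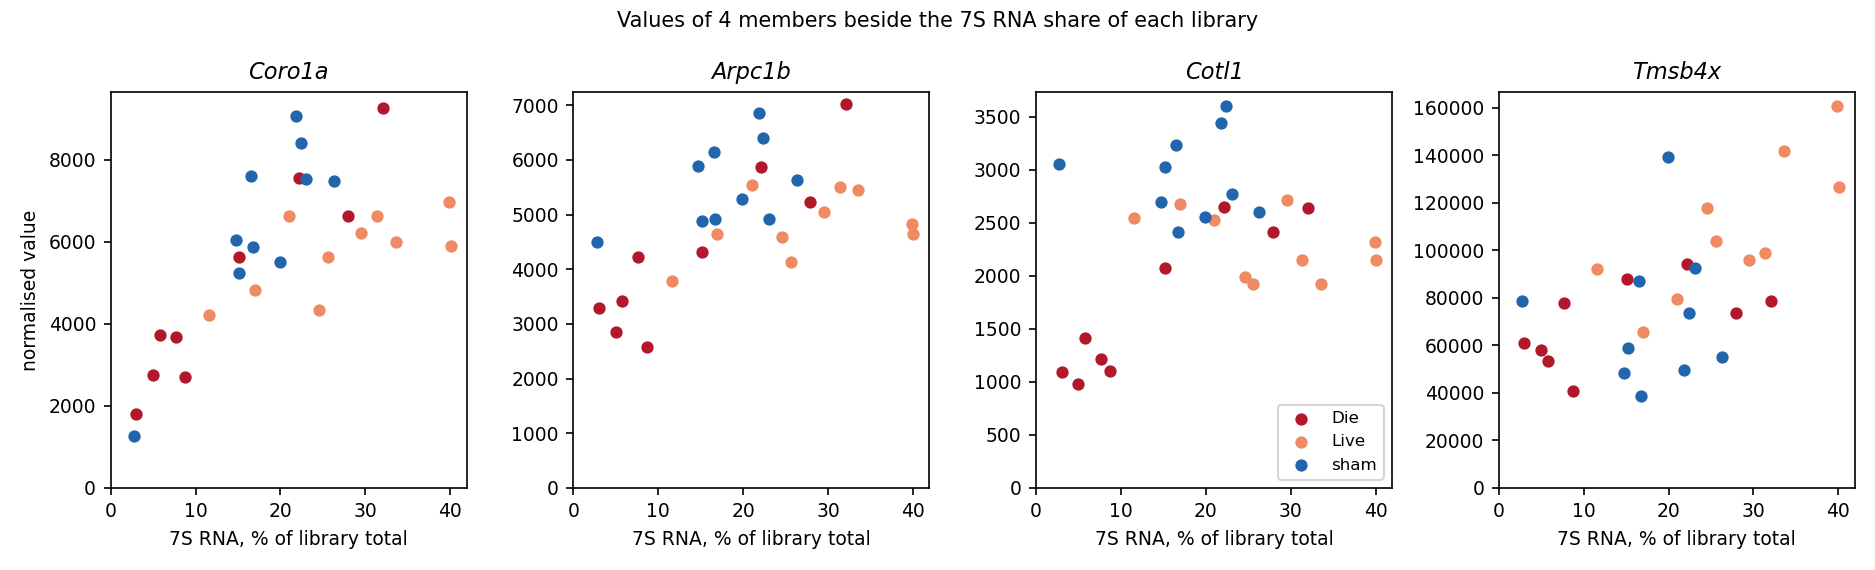
Normalised value of Coro1a, Arpc1b, Cotl1 and Tmsb4x (vertical axes, linear) against the share of each library's total taken by 7S RNA, in percent; each point is 1 library, coloured by group. In the Cotl1 panel, 5 Die libraries with 7S shares of 3.02% to 8.72% lie at 981 to 1412, and sham replicate 1, at 2.73%, lies at 3055.

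Lcp1 (chr14:75131101-75230842, plus strand) encodes L-plastin, which bundles filaments in leukocytes. It ran from 7899 over 10767 to 15610 in Die, from 6020 over 8001 to 15088 in Live, and from 8597 over 13006 to 18291 in sham. In all, 8 of 9 Die and 8 of 10 Live libraries were below the sham median, and 6 Live libraries were below every sham library. The log2 difference in Live against sham was -0.58 ± 0.17, adjusted p = 0.216, and -0.65 ± 0.17, adjusted p = 0.0637, without the 3 libraries. In Die against sham it was -0.30 ± 0.17, adjusted p = 0.638, and in Die against Live it was 0.28 ± 0.17, adjusted p = 0.581. With array weights Lcp1 was called in Live against sham, -0.63, adjusted p = 0.0203, and in irradiated against sham, -0.50, adjusted p = 0.0404.

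Monocyte marker sums averaged lower in both irradiated groups than in sham, as Lcp1 and Cotl1 did. Between the irradiated groups, Lcp1 averaged lower in Live (9184, against 10787 in Die) and Cotl1 lower in Die (1732, against 2292 in Live). The sum over 8 classical monocyte genes was 57880 ± 17325 in Die (33818 to 80066), 43854 ± 17371 in Live (22295 to 81610) and 92104 ± 31492 in sham (50657 to 132062). That over 8 non-classical monocyte genes was 5514 ± 947 in Die (3681 to 7063), 5589 ± 1577 in Live (3177 to 8252) and 8898 ± 1682 in sham (5746 to 12071). No monocyte marker was at 0 in any library. In Live against sham, 2 of the 8 classical and 1 of the 8 non-classical genes were called lower, with 0.0411% of all genes called. Without the 3 libraries 7 and 3 were called lower, with 0.706% of all genes called. In Die against sham 0 of 16 were called with all libraries, with 0% of all genes called. Without the 3 libraries 1 non-classical gene was called there, with 0.0085% of all genes called. The 5 pan-leukocyte genes summed to 48191 ± 4824 in Die, 43959 ± 6069 in Live and 53349 ± 4069 in sham. What part of the Lcp1 and Cotl1 values comes with monocyte content was not tested.

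The sums over markers of other cells are given beside these. The neutrophil sum was 58895 ± 28860 in Die, 59350 ± 20351 in Live and 54021 ± 21076 in sham, with Ly6g at 0 in Die replicates 2 and 14. The B cell sum was 17034 ± 3978 in Die, 18144 ± 2460 in Live and 15675 ± 2331 in sham. The T cell sum was 8586 ± 1048 in Die, 8569 ± 1527 in Live and 8350 ± 1068 in sham, and that of natural killer cells was 2203 ± 268, 2256 ± 451 and 2081 ± 236 in the same order. The erythroid sum was 780109 ± 450179 in Die, 968680 ± 484487 in Live and 861019 ± 401820 in sham.

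**Figure D4:**
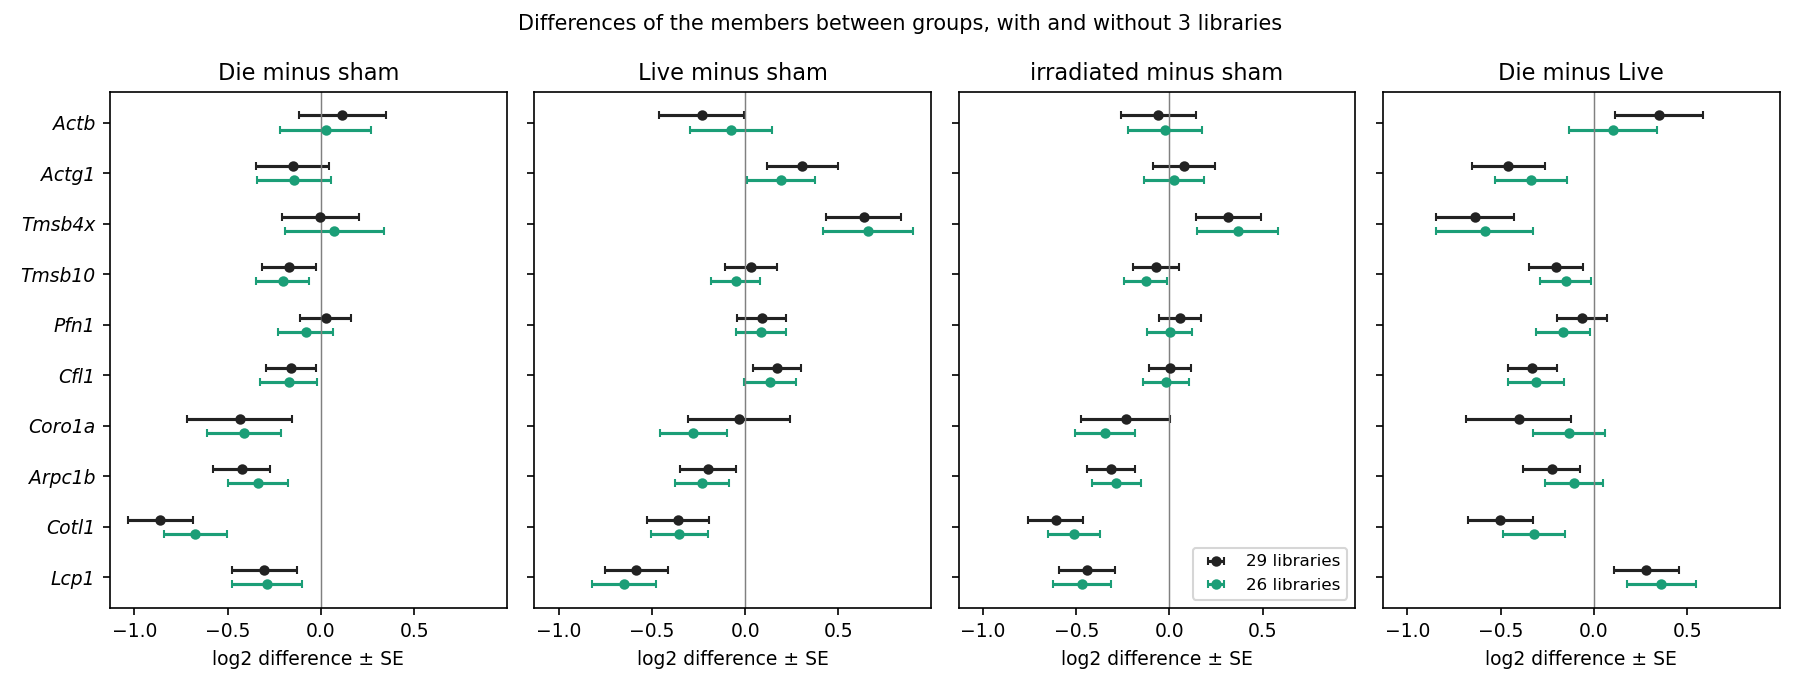
Log2 difference with its SE (horizontal axes) of each member in 4 comparisons, from the fit of all 29 libraries (black) and of the 26 libraries left without Die replicates 2 and 14 and sham replicate 1 (green). Cotl1 lies at -0.86 in Die minus sham and -0.36 in Live minus sham, Lcp1 at -0.30 and -0.58, and no member passed an adjusted p of 0.05 in either fit.

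Within groups, the members did not vary as 1 block. On log2 values centred on the group mean, the 45 pairs had a median Pearson r of 0.27 over 29 libraries (-0.82 to 0.77) and 0.29 over 26 libraries (-0.56 to 0.92). These r values are descriptions, since libraries share their scaling and their cell mixture. Over the 26 libraries Pfn1 and Cfl1 had r = 0.92, Actg1 and Cfl1 0.82, Actg1 and Pfn1 0.81 and Tmsb4x and Cfl1 0.79. Another set was Coro1a with Arpc1b, 0.89, Coro1a with Cotl1, 0.77, and Arpc1b with Cotl1, 0.73. Actb ran against Coro1a, with -0.56 over 26 libraries and -0.82 over 29. Lcp1 had r between -0.47 and 0.09 with every other member over the 26 libraries.

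**Figure D5:**
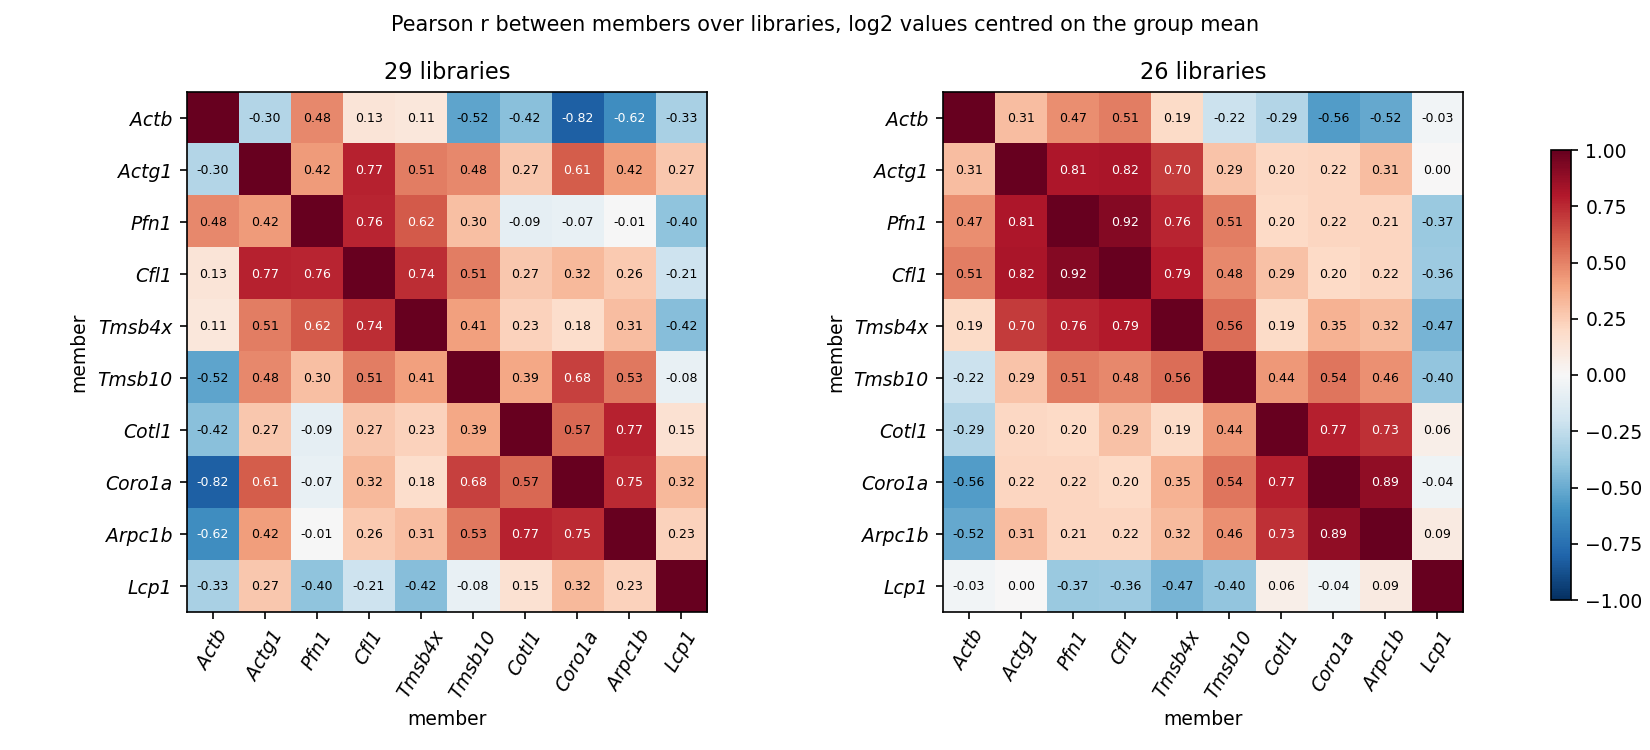
Pearson r between each pair of members over 29 libraries (left) and 26 libraries (right), on log2 values centred on the group mean; colour and printed values give r. Over the 26 libraries Actg1, Pfn1, Cfl1 and Tmsb4x have r of 0.70 to 0.92 with each other, and Cotl1, Coro1a and Arpc1b 0.73 to 0.89.

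The ratio of Coro1a to Cfl1 was 0.60 ± 0.29 in Die, 0.58 ± 0.13 in Live and 0.72 ± 0.27 in sham (SD). The ratio of Cotl1 to Cfl1 was 0.213 ± 0.075 in Die, 0.231 ± 0.045 in Live and 0.335 ± 0.067 in sham. The ratio of Tmsb4x to Actb was 0.60 ± 0.33 in Die, 1.08 ± 0.36 in Live and 0.59 ± 0.18 in sham. These ratios are descriptions of values already given, without a test.

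Among 11518 genes with a mean of at least 50, those most like Cotl1 over the 26 libraries were H2-DMa with r = 0.83, Cd74 and Sash3 with 0.81 each, Ficd, Slc39a7 and Atp5d with 0.81 each, Akr1b3 and Dbnl with 0.80 each, Ddost with 0.79 and Cd40 with 0.78. H2-DMa and Cd74 serve antigen loading of class II molecules, and Dbnl encodes drebrin-like protein, which binds actin. Of the members, Coro1a ranked 14 and Arpc1b 45 in this order, while Tmsb10 ranked 1042, Lcp1 5468 and Actb 9742. Over these libraries Cd74 averaged 15208 ± 6166 in Die, 18627 ± 3332 in Live and 17501 ± 2991 in sham, and Sash3 averaged 1556 ± 482 in Die, 1707 ± 256 in Live and 2137 ± 231 in sham.

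A wider list of 116 other actin genes was counted beside the members, and all 116 were tested. With 29 libraries limma called 0 in irradiated against sham, where 23 had an unadjusted p under 0.05, against 7.40% of all genes. It called 1 in Live against sham, 0 in Die against sham and 0 in Die against Live, where 24, 16 and 15 had an unadjusted p under 0.05, against 7.68%, 8.67% and 10.3% of all genes. The median log2 difference of the list was -0.12 in irradiated against sham, with 76 of 116 below 0, against 47.8% of all genes. Without the 3 libraries 1 gene was called higher and 2 were called lower in irradiated against sham, against 0.391% of all genes. An unadjusted p under 0.05 was then reached by 31 of 116, against 10.2% of all genes. In Live against sham 1 was called higher and 1 lower, against 0.706%, and 37 had an unadjusted p under 0.05, against 11.6% of all genes. In the other comparisons 0 were called. There 20 (Die against sham) and 10 (Die against Live) had an unadjusted p under 0.05, against 8.28% and 8.14% of all genes.

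Carmil1, which encodes a regulator of filament capping, was the gene that rose. It averaged 245 ± 186 in Die (80 to 645), 313 ± 193 in Live (180 to 798) and 87.8 ± 35.8 in sham (42 to 136), and all Live libraries were above all sham libraries. Its log2 difference in Live against sham was 1.77 ± 0.35, adjusted p = 0.0380, and 1.67 ± 0.31, adjusted p = 0.00830, without the 3 libraries. In irradiated against sham it was 1.52 ± 0.31, adjusted p = 0.0641, and 1.35 ± 0.28, adjusted p = 0.0252, without them. With all but 1 library, the Live against sham difference stayed between 1.61 and 1.86, and limma no longer called it without Die replicate 11 or 16, Live replicate 5, 6, 7, 18 or 19, or sham replicate 2, 4, 6, 7, 8 or 9, where the adjusted p lay between 0.0507 and 0.101. It was not called either with all 29 libraries rescaled to genes other than 7S, mitochondrial and hemoglobin genes, adjusted p = 0.153.

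Capg and Myo1f fell in irradiated against sham without the 3 libraries. Capg encodes a capping protein of the gelsolin family and averaged 635 ± 278 in Die, 735 ± 123 in Live and 1069 ± 224 in sham over these libraries, a log2 difference of -0.68 ± 0.16, adjusted p = 0.0473. Myo1f encodes a leukocyte class I myosin and averaged 2913 ± 624 in Die, 2024 ± 918 in Live and 3966 ± 719 in sham, -0.76 ± 0.18, adjusted p = 0.0450. In Live against sham Myo1f was at -1.08 ± 0.20, adjusted p = 0.00747. With all 29 libraries Capg was at -0.51, adjusted p = 0.587, and Myo1f at -0.71, adjusted p = 0.200. Both also missed the threshold without the 3 libraries when the genes tested were those of the 29-library filter, adjusted p = 0.0626 for Capg and 0.0717 for Myo1f. With values rescaled to genes other than 7S, mitochondrial and hemoglobin genes and without the 3 libraries, an alternative chosen after the data were seen, no call in irradiated against sham remained, with an adjusted p of 0.109 for Carmil1, 0.201 for Capg and 0.179 for Myo1f. Myo1f was then at an adjusted p of 0.0514 in Live against sham, and Carmil1 at 0.0483.

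The other genes among the 3 smallest p-values in each direction without the 3 libraries did not pass. Abi3, of the WAVE complex, was at -0.85 ± 0.21, adjusted p = 0.0552, in irradiated against sham. Wasl, which encodes N-WASP, was at 0.55 ± 0.17, adjusted p = 0.151. Myl9, a myosin light chain abundant in platelets, was at 0.41 ± 0.18, adjusted p = 0.414, with means of 18574 ± 5124 in Die, 24816 ± 6400 in Live and 16945 ± 8397 in sham. Of the 8 listed Arp2/3 genes, 0 were called in any comparison, with or without the 3 libraries. An unadjusted p under 0.05 was reached by 1 of them in irradiated against sham and 2 in Live against sham, with and without the 3 libraries, by 1 in Die against sham in both fits, and by 1 and then 0 in Die against Live. Without the 3, the smallest adjusted p was that of Actr2, which encodes the Arp2 subunit and was named after its values were seen, at -0.48 ± 0.13, adjusted p = 0.0637, in Live against sham.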

How the data were processed

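The authors deposited 1 table of normalised signal, with 50384 gene symbols and a column for each of the 29 libraries. GRCm38, DESeq2, sleuth, kallisto 0.44.0 and bcl2fastq 2.19 appear in the submitters' processing notes, with no role, order or annotation. The number of reads behind a value is unknown, so no counting intervals are given. Because the values are normalised and not counts, the test was limma's (3.58.1, R 4.3.3), with a variance trend, on log2(value + 0.5), which understates changes of low genes. All 24310 genes averaging 1 or more entered 1 model with 3 group means. Die, Live and their equally weighted mean were each set against sham, and Die against Live, two-sided, with Benjamini-Hochberg adjustment over all genes and a threshold of 0.05. The code was tested on simulated data. Since the comparisons share libraries, they are not independent. Nothing in the labels says more of how animals were kept than 1 library each, so p-values measure the spread between these libraries.

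The members and lists were chosen with earlier results of these data known. All members are named; of the wider actin list, every called gene and the 3 smallest p per direction in irradiated against sham without the 3 libraries; and the 10 genes with the highest r to Cotl1. Coordinates are GRCm38 from GENCODE M21, and values per kb use the median length of its basic protein-coding transcripts. Same-numbered libraries of sham and irradiated animals were checked for shared deviations from their group means: 0 of 10 pairs had r over 0.1. Python 3.11.15, pandas 2.3.3 and matplotlib 3.10.9 were used for values and figures.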

Additional observations from a re-analysis of the deposited data

Results flagged for a closer look

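Of the 30 combinations of member and group, 4 held a library far from the others by Dixon's rule, the gap to the next library over the range. For independent, normally distributed values chance gives about 1 in 20. These values were not log-transformed and the combinations share libraries, so that rate is only a rough guide. Actb was 170063 in Live replicate 5, and the next Live library had 119264. Actb was 321200 in sham replicate 1, with 175347 next, and Coro1a was 1260 in the same library, with 5248 next. Tmsb4x was 139516 in sham replicate 10, with 92609 next. This Tmsb4x gap, 0.466 of the range, only just reached the cut-off. Sham replicate 1 is the library with the most genes at 0.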

How the results depend on the processing

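The count of members called was 0 of 10 in all 4 comparisons under pseudocounts of 1 and 5, no filter, a minimum mean of 50, rescaling to genes other than 7S, mitochondrial and hemoglobin genes, quantile normalisation and no trend. It became 2 in irradiated against sham and 1 in Live against sham with array weights, both also without the 3 libraries, and 1 in irradiated against sham with the 7S share as a covariate. Leaving out each library in turn gave 0 to 1 in Die against sham and 0 in the others. For the fits that leave out 1 library, the share of all genes called is not given here. The replicate block was fitted although the labels do not say whether equal numbers pair the libraries. The r between same-numbered libraries (-0.19 to 0.04) cannot decide this, since it compares only their expression values. The block called 0 members in its 3 comparisons, with Cotl1 at -1.29 in Die against sham, adjusted p = 0.0839. Die and Live share no numbers, so that comparison has no block. For the 116 wider genes, irradiated against sham had 0 calls as reported, 1 of 111 with a minimum mean of 50 (0.0868% of all genes), 9 with array weights (1.98%) and 2 with the 7S share (0.0864%). Live against sham had 1 as reported (0.0411%), 0 without a filter, rescaled, with no trend or under the block, 3 of 111 with a minimum mean of 50 (0.347%), 11 with array weights (2.95%) and 0 to 3 leaving out each library in turn. Without the 3 libraries but with the genes of the 29-library filter, chosen after seeing the data, these were 1 and 5 of 116 (0.255% and 0.473%). Also added later and without the 3 libraries, they were 7 and 12 with array weights (2.10% and 3.26%) and 0 and 1 rescaled (0.00848% and 0.106%). Of 40 member differences, 7 changed sign under quantile normalisation, 10 with the 7S share and 5 with array weights and without the 3 libraries. The largest was Coro1a in Die against Live, reported as -0.40, at 0.35 with the 7S share and 0.01 with array weights and without the 3 libraries. The causes were not tested. The spread between libraries of 1 group limits what these 29 libraries can show for single genes.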
